A study of Sus scrofa domesticus with 4 samples.

Results

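CARTPT encodes the precursor of the CART peptides, named for the cocaine- and amphetamine-regulated transcript through which the gene was found in rat brain. The precursor enters the regulated secretory pathway, where the prohormone convertases encoded by PCSK1 and PCSK2 cut it into active peptides that are stored in dense-core granules. In rodents CART peptides are best known from hypothalamic neurons, where they restrain feeding and respond to leptin. They have also been found in endocrine cells, those of the rat anterior pituitary among them. The expression of the gene in the porcine pituitary was measured by 1 of the 43603 probes of the array, A_72_P165526. This probe is annotated with the RefSeq transcript NM_001099925 and was spotted once on each array. It was the single probe that the pig RefSeq annotation assigned to CARTPT, 1 of 3029 genes named by a probe. The gene was chosen by its ratio between pregnant and cyclic gilts, which had the lowest unadjusted p of the genes with a symbol in an earlier analysis of the same arrays. Its levels and ratios are therefore given as a description, with no test.

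The pregnant group held 4 gilts, mated naturally and slaughtered on days 15 to 16 of pregnancy, when conceptuses were present. The cyclic group held 4 gilts slaughtered on days 15 to 16 of the estrous cycle, which is late in the luteal phase. All 8 were mature Large White by Polish Landrace females of 90 to 110 kg, and RNA came from the anterior pituitary. Each of 4 two-colour arrays carried 1 pregnant and 1 cyclic gilt, and the study addressed the transcriptome of this gland around implantation. By the label fields of the samples, the pregnant gilt was labelled with Cy3 on arrays 1 and 3 but with Cy5 on arrays 2 and 4. The text of the labelling protocol names a single orientation instead, with pregnant RNA in Cy3. The authors' deposited table of log2 ratios follows the label fields. On each array it held the pregnant over cyclic ratio of the scanner software's processed signals, read by those fields. Both were equal within 0.001 for 43553 of 43553 probes spotted once. Directions below follow the label fields.

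Between 50.5% and 60.5% of probes in the pregnant channels, and between 52.6% and 66.6% in the cyclic channels, were well above background by the scanner software's flag. No spot was saturated (0 on each array). The 9 probed genes among 10 anterior lobe markers (POU1F1, NR5A1 and the hormone genes GH1, PRL, POMC, TSHB, FSHB, LHB and CGA) were well above background in all 4 pregnant and all 4 cyclic channels, and TBX19 had no named probe. Their summed level was 878000 to 1370000 in the pregnant and 1080000 to 1680000 in the cyclic channels, lower in the pregnant gilt on 2 of 4 arrays. The RNA came from tissue and not from sorted cells, so fewer cells that make a transcript and less of it per cell cannot be told apart.

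The CARTPT spot was well above background in 4 of 4 pregnant and 4 of 4 cyclic channels, and was flagged as an outlier in none (0 of 8). On arrays 1 to 4 its median pixel intensity was 512, 235, 185 and 347 in the pregnant gilts over local backgrounds of 27, 32.5, 34 and 35. In the cyclic gilts it was 2382, 995, 908.5 and 473 over backgrounds of 43, 35, 37 and 36. The probe thus gave a clear signal in every gland, at 5.44 to 19 times the background in pregnant gilts and 13.1 to 55.4 times in cyclic gilts.

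After normalization within and between arrays, the CARTPT level in the pregnant gilts of arrays 1 to 4 was 9.51, 7.92, 8.04 and 8.21 on the log2 intensity scale. In the cyclic gilts of the same arrays it was 10.54, 9.92, 9.55 and 9.39. Each pregnant gilt lay below the cyclic gilt of her own array. The groups nevertheless overlapped, since the pregnant gilt of array 1, at 9.51, stood above the cyclic gilt of array 4, and 3 of the 4 cyclic gilts lay above the highest pregnant one.

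The pregnant gilts averaged 8.42 ± 0.74 and the cyclic gilts 9.85 ± 0.51 (SD, n = 4 each), which are 343 and 921 on the linear scale. Within the pregnant group 3 gilts lay close together, between 7.92 and 8.21, and the gilt of array 1 lay apart from them. The cyclic gilts were spread more evenly over 1.15 log2 units, against 1.59 in the pregnant group. The pregnant gilts of arrays 2, 3 and 4 differed among themselves by less than the SD of their group, as did the cyclic gilts of arrays 3 and 4.

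Array 1 held the highest gilt of both groups, and the mean of its pair was 10.02 against 8.92, 8.80 and 8.80 on arrays 2 to 4. Without array 1 the groups did not overlap, with pregnant gilts between 7.92 and 8.21 and cyclic gilts between 9.39 and 9.92 (8.06 ± 0.15 and 9.62 ± 0.27, SD, n = 3 each). That removal was chosen after the levels were seen. What set array 1 apart was not tested.

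The scanner software's own processed signals gave the same order within pairs. They were 794.1, 201.2, 176.4 and 171.4 in the pregnant gilts of arrays 1 to 4, with errors of 17.6 to 79.9. The cyclic gilts of arrays 1 to 4 had 1452, 1135, 589.9 and 529.5, with errors of 53.3 to 145. On this scale the pregnant gilt of array 1 exceeded the cyclic gilts of arrays 3 and 4, so the overlap was wider than after normalization between arrays.

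**Figure D1:**
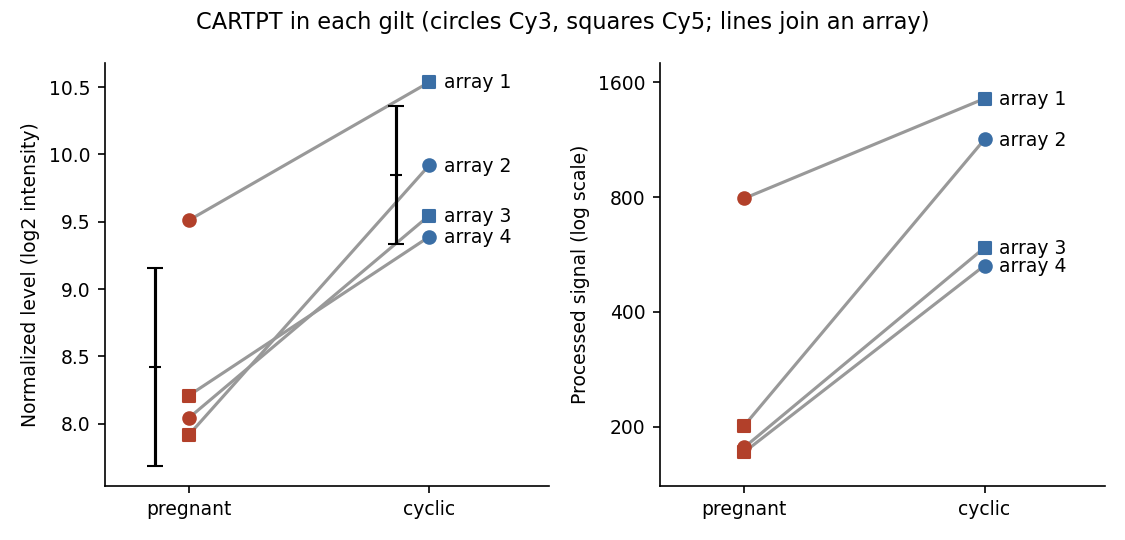
Level of CARTPT in each gilt, with pregnant gilts left and cyclic gilts right and a line joining the 2 gilts of an array. The left panel shows normalized log2 intensity with the mean and SD of each group beside the points (8.42 ± 0.74 and 9.85 ± 0.51, n = 4 each), the right panel the processed signal on a log axis, with circles for Cy3 and squares for Cy5. In all 4 pairs the pregnant gilt is the lower one, and array 1 is highest in both groups.

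The pregnant over cyclic ratio of CARTPT was -1.02 on array 1, -2.00 on array 2, -1.50 on array 3 and -1.18 on array 4, on the log2 scale. The transcript was therefore 2.03-fold lower in the pregnant gilt of array 1, and 4-fold, 2.83-fold and 2.26-fold lower in those of arrays 2 to 4. The mean was -1.43 ± 0.43 (SD, n = 4), or 2.69-fold lower in pregnant gilts. The SE of limma's fit, which sets aside a gene-specific dye effect, was 0.18. The ratio was below 0 on 4 of 4 arrays, as it was for 7.43% of all 18852 features. The median feature had an SD of 0.27 over the 4 arrays.

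The scanner software's error of a single spot's ratio, converted to log2, was 0.22, 0.31, 0.26 and 0.26 on arrays 1 to 4. It belongs to the software's own ratios of -0.87, -2.50, -1.74 and -1.63, not to the normalized ratios above. That error covers the spot and not the animal.

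Both dye orientations gave a ratio of like size. The mean was -1.26 on the 2 arrays with pregnant RNA in Cy3 and -1.59 on the 2 with pregnant RNA in Cy5. The fitted dye effect of the probe was -0.16 in red over green, where the median size over all features was 0.13. If pregnant RNA had been in Cy3 on every array, as the protocol text has it, arrays 2 and 4 would turn to 2.00 and 1.18, and the mean would be 0.16 ± 1.69 (SD, n = 4). The direction of the CARTPT difference thus rests on the label fields and on the authors' deposited table, whose values for this probe were -0.87, -2.50, -1.74 and -1.63 on arrays 1 to 4.

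Normalization changed which array lay closest to 0. Before loess, the background-corrected ratios were -2.20, -1.92, -2.37 and -0.34 on arrays 1 to 4, so the least negative array was array 4 and not array 1. With median centring in place of loess the ratios were -1.52, -1.88, -1.97 and -0.73 and their mean -1.53. The processed signals with loess gave -0.90, -2.56, -1.74 and -1.62, with a mean of -1.70. Array 2 had the lowest ratio in 4 of the 6 ways of preparing the values and array 3 in the other 2, while all 4 arrays were below 0 in every one of the 6. The authors' table and the processed signals with loess start from the same signals, so they are not separate measurements.

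**Figure D2:**
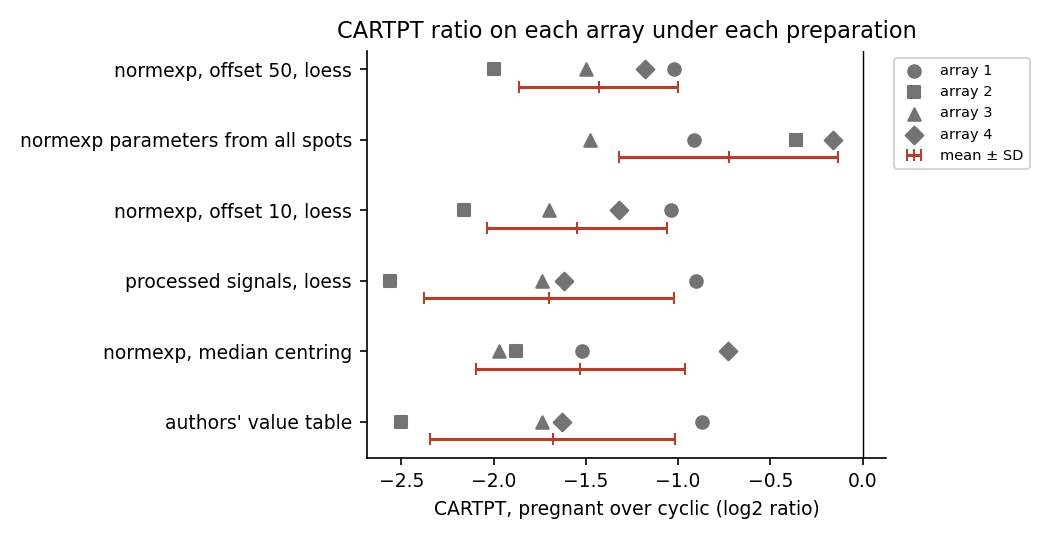
Pregnant over cyclic log2 ratio of CARTPT on each array (grey symbols) with the mean and SD of the 4 arrays (red), for 6 ways of preparing the values. Every symbol lies below 0, and the mean runs from -1.70 with processed signals to -0.73 when background parameters are estimated from all spots.

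CARTPT was chosen by its ratio on these arrays, so its places among the features follow largely from that choice and test nothing. On each array the CARTPT ratio lay in the lower tail of all features. It was lower in 326 of the 18852 features on array 1 (1.73%), 37 on array 2 (0.196%), 74 on array 3 (0.393%) and 57 on array 4 (0.302%). Among the 2406 features with a gene symbol, 47, 0, 18 and 11 had a lower ratio on arrays 1 to 4. The spread of ratios depends on brightness, so CARTPT was also set against features within 0.5 log2 units of its own brightness. These numbered 1919, 2389, 2492 and 2439, with ratios of SD 0.47, 0.61, 0.45 and 0.45 around medians of -0.03, -0.03, -0.05 and 0.04. The share of them with a lower ratio was 2.29%, 0.753%, 0.562% and 0.656%. Spots near CARTPT on the slide, within 20 rows and 10 columns, had median ratios of -0.08, 0.10, -0.10 and 0.08 over 486 spots on each array.

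**Figure D3:**
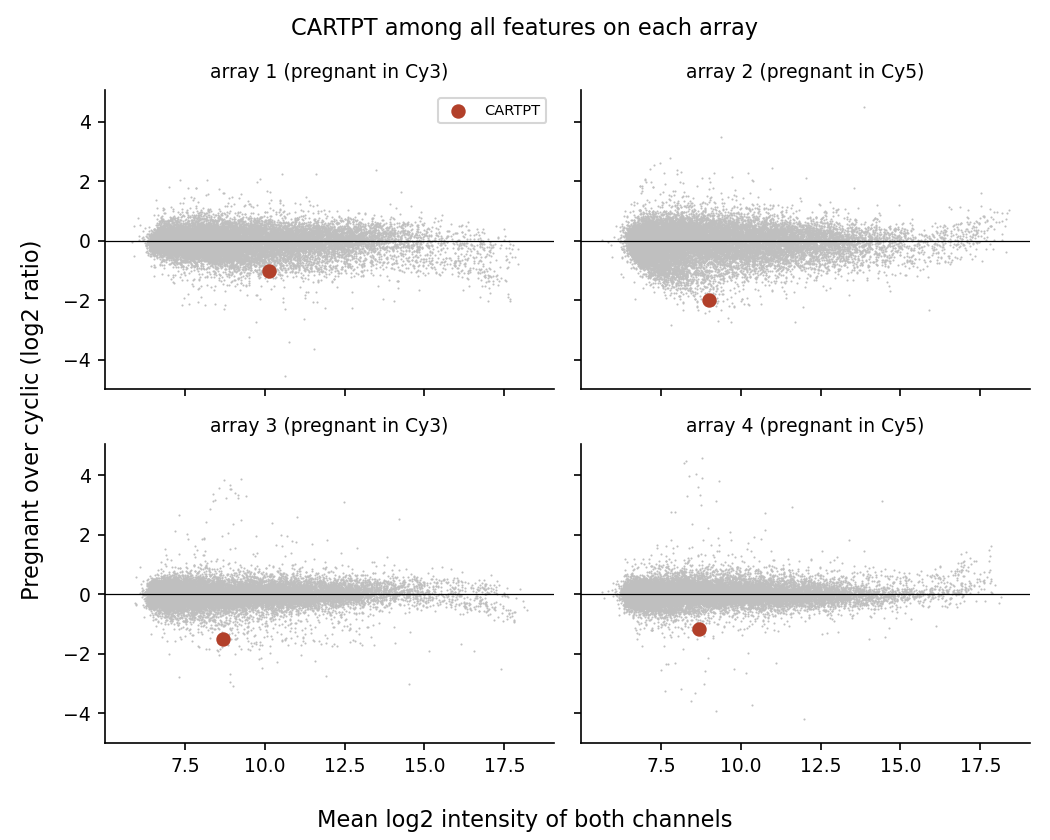
Pregnant over cyclic log2 ratio against mean log2 intensity of both channels, 1 panel per array, for all 18852 features (grey) and CARTPT (red). CARTPT lies low in the cloud at a brightness of 10.1 on array 1 and between 8.68 and 8.99 on arrays 2 to 4. On each array 14 to 44 features of like brightness lie below it, the most on array 1.

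Genes of 7 lists were described beside CARTPT. Limma called 0 of all 18852 features at an adjusted p of 0.05 (smallest adjusted p = 0.135, Benjamini-Hochberg). An unadjusted p under 0.05 was found for 1360 features (7.21%), 788 of them lower (4.18%) and 572 higher (3.03%) in pregnant gilts. Of all fitted ratios 54.3% were below and 45.7% above 0. The median ratio of all features was -0.02. Limma's separate-channel fit called 3 features at an adjusted p of 0.05. Lists are read against these shares. No list member passed the adjusted threshold, with 0 called in each of the 7 lists.

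Enzymes that process prohormones were represented by few probes. Of 13 listed genes 5 had a named probe and all 5 were kept, 4 with a ratio above 0 and 1 below, with 0 at an unadjusted p under 0.05 and a list median of 0.14. PCSK1, the convertase that makes the first cuts in many prohormones, was at -0.21, 0.69, -0.17 and 0.39 on arrays 1 to 4, averaging 0.17 ± 0.44 (SD, n = 4). PCSK2, the second convertase, was at 1.43, -0.55, -0.82 and 1.56, averaging 0.40 ± 1.26. It was well above background in 4 of 4 pregnant and 3 of 4 cyclic channels. Its cyclic levels on arrays 1 and 4, where its ratio was above 0, were only 6.58 and 6.74. ADCYAP1, well above background in no channel, had a mean log2 intensity of 6.20. PCSK1 and PCSK2 thus had 2 arrays on each side of 0, while CARTPT was below 0 on all 4.

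CPE, the carboxypeptidase that trims the cut peptides and the brightest of the 5, averaged 0.08 ± 0.23, and its 6 other probes shared that sign. SCG5, the chaperone 7B2 of PCSK2, averaged -0.21 ± 0.31 with array 1 at -0.64. CTSB, a lysosomal protease, averaged 0.14 ± 0.42, while its 3 other probes lay below 0. The lowest adjusted p of the list was 0.660 by limma.

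Granins and granule proteins held 3 genes below 0 and 2 above. Of 16 listed genes 5 were probed and kept, 3 of them below 0 on 4 of 4 arrays, where 7.43% of all features were, and the list median was -0.16. CHGA, the chromogranin that helps form dense-core granules, was at -0.96, -0.91, -0.29 and -0.09 on arrays 1 to 4, averaging -0.56 ± 0.44 (SD, n = 4). It was the 1 member at an unadjusted p under 0.05, and limma gave an adjusted p of 0.647. Without array 1 or without array 2 that call was lost (unadjusted p = 0.12 and 0.136 by limma).

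RAB3A, a small GTPase of secretory vesicles, averaged -0.36 ± 0.38, with array 2 at -0.90 and array 4 at -0.02. CHGB, the brightest member and a relative of CHGA, averaged -0.16 ± 0.12, and its 14 other probes had the same sign. SCG2, secretogranin II, averaged 0.15 ± 0.30 and RAB27A, another vesicle GTPase, 0.07 ± 0.42.

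Other neuropeptide precursors were spread around 0. Of 35 listed genes 21 had a named probe and 11 were kept, 6 above and 5 below 0, with a median of 0.01 and 0 at an unadjusted p under 0.05. OXT, the oxytocin precursor, was at -0.67, -0.62, 0.02 and -0.16 on arrays 1 to 4, averaging -0.36 ± 0.34. HCRT, the orexin precursor, averaged -0.33 ± 0.47, of which array 3 alone was at -1.02 and array 2 at -0.01. HCRT was below 0 on 4 of 4 arrays and OXT on 3 of 4.

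GNRH1, the precursor of gonadotropin-releasing hormone, averaged 0.44 ± 0.45, with array 2 at -0.12 and the cyclic channel well above background on 3 of 4 arrays. Its mean was 1.34 with processed signals and 0.18 without array 4. NMB, the neuromedin B precursor and the brightest of the list, was at -1.96, -0.02, 0.47 and -1.50, averaging -0.75 ± 1.16. Its 2 low arrays were thus 1 and 4, where CARTPT was closest to 0 in the preparation reported. NPY and AGRP, which encode the peptides that oppose CART in the control of feeding, averaged 0.17 ± 0.16 and -0.09 ± 0.05, and were named for that role after their values were seen. AGRP was well above background in 3 of 4 pregnant and 3 of 4 cyclic channels, and NPY in 4 and 3. Their mean log2 intensities were 7.10 for NPY and 6.72 for AGRP, against 6.20 for ADCYAP1, which was well above background in no channel. So near that level, a small ratio or SD does not show that a transcript was unchanged.

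Appetite and energy receptors had 11 of 18 genes probed and 5 kept, 2 above and 3 below 0, with a median of -0.01 and 0 at an unadjusted p under 0.05. ADIPOR1, an adiponectin receptor and the brightest of the 5, averaged -0.22 ± 0.11 and was below 0 on 4 of 4 arrays. ADIPOR2, its relative, averaged 0.14 ± 0.18 and NPY1R, a receptor of neuropeptide Y, -0.17 ± 0.21. ADIPOR2 and NPY1R were dim, with mean log2 intensities of 7.415 and 7.356, and ADIPOR2 was well above background in 3 of 4 pregnant channels. With processed signals they averaged 0.21 and -0.35. For them too a small ratio does not show an unchanged transcript. Of the genes of cAMP signalling, through which CART transcription is driven in rat pituitary cell lines, 7 of 28 were probed and kept. They were 3 above and 4 below 0, with a median of -0.18 and 0 at an unadjusted p under 0.05. Without array 3 that median turned to 0.15, and with background parameters from all spots to 0.04.

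GNAS, the stimulatory G protein subunit that activates adenylyl cyclase and the brightest of that list, averaged -0.21 ± 0.15, and its 15 other probes also lay below 0. ATF4, a transcription factor of the CREB family, averaged -0.18 ± 0.18 and was below 0 on 4 of 4 arrays. Its 5 other probes had fitted ratios below 0 too. PDE4B, a phosphodiesterase that breaks down cAMP, averaged -0.25 ± 0.29 with array 3 at 0.18. It was dim as well, with a mean log2 intensity of 7.095, and averaged -0.50 with processed signals.

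**Figure D4:**
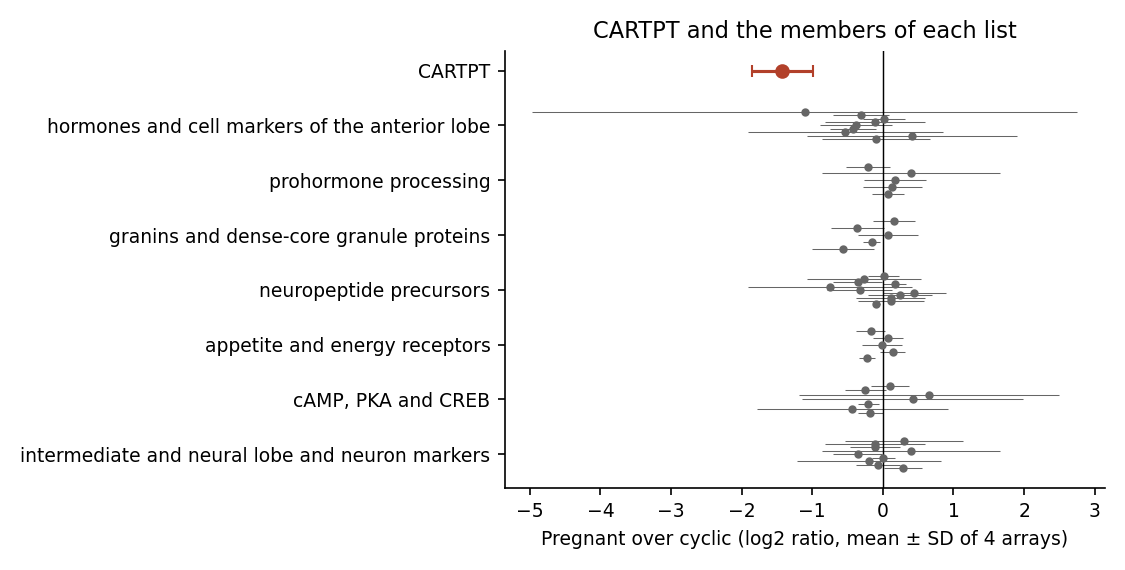
Pregnant over cyclic log2 ratio (mean and SD of 4 arrays) of CARTPT (red) and of each kept member of 7 gene lists (grey). CARTPT stands at -1.43 ± 0.43, and the means of the list members lie between -1.10 (TSHB, in the anterior lobe list, with an SD of 3.86) and 0.65.

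Markers of the anterior, intermediate and neural lobes were set beside CARTPT, since CART peptides are also carried in hypothalamic axons. Of 9 anterior lobe genes 7 were below 0, with a list median of -0.31 and list medians on arrays 1 to 4 of -0.54, 0.35, -0.24 and -0.12. LHB, the luteinizing hormone subunit, averaged -0.42 ± 0.32 and was the 1 of these at an unadjusted p under 0.05 (adjusted p = 0.647 by limma), a call lost without array 1 or without array 2. NR5A1, a transcription factor of gonadotropes, averaged -0.38 ± 0.51, with array 2 at -1.11. PRL, prolactin and the brightest, averaged -0.31 ± 0.39. On array 2, where CARTPT was lowest, the list median was above 0. TSHB, the thyrotropin subunit, stood at -1.67, 4.48, -3.02 and -4.20 on arrays 1 to 4, below CARTPT on arrays 1, 3 and 4. GH1, growth hormone, averaged -0.53 ± 1.38, and both were named after their values were seen.

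POMC, which is also an anterior lobe marker, made up nearly all of the summed level of the intermediate lobe markers POMC and PCSK2. That sum was 178000 to 301000 in the pregnant channels and 193000 to 338000 in the cyclic channels, lower in the pregnant gilt on 2 of 4 arrays, and PAX7 had no named probe. The neural lobe and axon markers OXT, AVP and NEFL summed to 13200 to 20500 in pregnant and 15400 to 21500 in cyclic channels, lower in the pregnant gilt on 4 of 4 arrays. Of all single features, 7.43% were below 0 on every array. OXT and NEFL were each below 0 on 3 of 4 arrays and AVP on 2, and NEFL averaged 0.01 ± 0.16. NEFM, NEFH and CRYM had no named probe. AVP, the vasopressin precursor made by the same kind of hypothalamic neuron as oxytocin, was well above background in 1 of 4 pregnant and 2 of 4 cyclic channels. Of the glial markers, GFAP was well above background in 2 of 4 pregnant and 2 of 4 cyclic channels and averaged -0.06 ± 0.31. MBP, a myelin protein, averaged -0.19 ± 1.02, and RAX, NKX2-1 and S100B had no named probe. The part of neural lobe tissue in the CARTPT difference was not tested.

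Over the whole list of 18 intermediate lobe, neural lobe and neuron markers 9 were kept, 5 below and 4 above 0, with a median of -0.06 and 0 at an unadjusted p under 0.05. The axonal growth protein GAP43 was above 0 on 4 of 4 arrays (6.42% of all features were) at 0.28 ± 0.27, and STMN2, another neuronal protein, averaged 0.30 ± 0.83. POMC, the brightest, averaged -0.11 ± 0.70. NEFL, the light neurofilament chain, stood at 0.01 ± 0.16 while CARTPT was at -1.43.

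The named gene whose 4 ratios lay nearest to those of CARTPT was PTGDS, the lipocalin-type prostaglandin D synthase. Its ratios were -1.36, -1.09, -0.66 and -0.88 on arrays 1 to 4, averaging -0.999 ± 0.30 (SD, n = 4). The root-mean-square distance to CARTPT was 0.66 log2 units over the 4 arrays, where the median over 2405 named genes was 1.5. This distance takes in the size of the ratios, so any gene low on every array lies nearer than an unchanged gene. The order of the arrays was not shared, since PTGDS was lowest on array 1, where CARTPT had its highest ratio. IGFBP5, an insulin-like growth factor binding protein, followed at a distance of 0.72 with ratios of -0.70, -1.52, -0.60 and -0.22. The distance of SELENOM, which encodes an ER selenoprotein, was 0.75, that of CUEDC1 0.81 and that of HYAL2, a hyaluronidase, 0.82.

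PTGDS was also nearest when the 8 gilts' levels were compared, each gene centred on its own mean. Its distance there was 0.34, against a median of 0.94 over the named genes. Its levels in the pregnant gilts of arrays 1 to 4 were 13.47, 12.72, 12.64 and 12.53, and those in the cyclic gilts were 14.84, 13.81, 13.30 and 13.41. As for CARTPT, the gilts of array 1 were highest in both groups, and the other 3 pregnant gilts lay close together. FAAH, the fatty acid amide hydrolase that degrades anandamide, followed at 0.52. FASTK came next at 0.57, then VARS2, a mitochondrial valyl-tRNA synthetase, also at 0.57. In FAAH, FASTK and VARS2 too, the gilts of array 1 were highest in both groups. Gilts of 1 array share a hybridisation, so part of any likeness over the 8 levels is likeness between arrays.

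**Figure D5:**
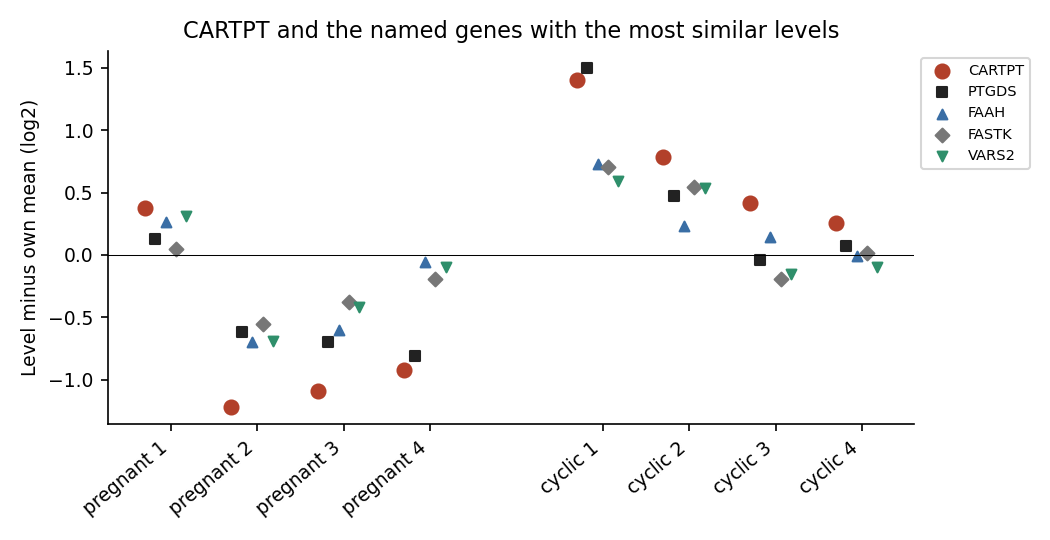
Normalized log2 level minus the gene's own mean in each of the 8 gilts, numbered by array, with pregnant gilts left and cyclic gilts right, for CARTPT (red) and the 4 named genes of smallest distance to it. CARTPT and each of the 4 other genes are highest in the cyclic gilt of array 1 and lie below their means in the pregnant gilts of arrays 2 to 4.

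The nearest genes with a kept probe on either side of CARTPT in the RefSeq gene order did not share its ratio. GTF2H2, a subunit of transcription factor TFIIH, averaged 0.09 ± 0.21 and SMN1, the survival of motor neuron gene, 0.22 ± 0.27 on one side. ATP6V0E1, a subunit of the vacuolar proton pump, averaged 0.18 ± 0.16 and RPL26L1, a ribosomal protein-like gene, -0.03 ± 0.37 on the other. Limma's adjusted p of these 4 genes lay between 0.656 and 0.962.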

How the data were processed

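Total RNA of the anterior pituitary had an RNA integrity number between 7.5 and 10, and 825 ng of cRNA per dye was hybridised, per the labels' protocols. The scans were extracted by Agilent Feature Extraction, whose version was 10.7.3.1 per the file headers. Deposited files of the scanner hold median pixel intensities of each spot and its background, processed intensities (background-subtracted and dye-normalized), log10 ratios with an error, and flags, per the file headers. A value table deposited by the authors gives log2 ratios. For probes spotted once these equalled the ratios of the processed intensities, with no further centring. The column medians of that table were 0.15, -0.01, 0.07 and -0.07.

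Analysis ran in R 4.3.3 with limma 3.58.1. Median signals were background-corrected by normexp (offset 50), with parameters estimated without the 377 to 3480 spots per channel that carried any outlier flag of signal or background. Ratios were normalized by loess (span 0.3, control spots at weight 0). Between 26 and 63 spots per array with an outlier flag on the signal itself were dropped. A probe was kept if 4 or more of its 8 channels were well above background and every array gave a ratio, which left 25138 of 43603. RefSeq accessions named 6700 probes through the gene table of Sscrofa11.1, and the probe of highest mean intensity stood for a gene, leaving 18852 features, 2406 named. Channel levels were taken after Aquantile normalization between arrays. Limma's lmFit and eBayes fitted the ratio beside a dye effect. P-values were adjusted by Benjamini and Hochberg across the 18852 features. The script was tested on simulated data.

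CARTPT, the lists and the naming rules were chosen with earlier results of these data known. The rules named, per list, members at an unadjusted p under 0.05, the 3 of lowest p and the brightest, then 5 genes nearest to CARTPT by each of 2 distances and 2 neighbours per side. Other genes are given as list or marker members. A gene nearest by level and a glial marker are not reported here. The number of arrays limits the precision. The alternatives tried are given at the end.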

Additional observations from a re-analysis of the deposited data

Results flagged for a closer look

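The processed signal of CARTPT in the pregnant gilt of array 1 was 794, while those of the other 3 pregnant gilts lay between 171 and 201. Its gap to the nearest was 0.952 of the group's range, which is what marked it. The same test did not mark the normalized level of that gilt, the cyclic levels or the 4 ratios of CARTPT. Among the other named genes, the ratio of ATP6V0E1 on array 2 was 0.413, against 0.0685 to 0.121 on the other arrays. Of 41 sets of 4 values tested 2 were marked. Chance marks about 1 in 20 where sets are independent and their values normally distributed. The CARTPT sets share their spots and the processed signals are on a linear scale, so that rate is only a rough guide here.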

How the results depend on the processing

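The CARTPT ratio, -1.43 in the fit reported, stayed below 0 with an offset of 10 (-1.55), median centring (-1.53), processed signals (-1.70), the authors' value table (-1.68) and without a dye term (-1.43). The value table and the processed signals are the same measurements, without and with loess. With 1 array left out the CARTPT ratio ran from -1.63 to -1.22. It was -0.73 with background parameters from all spots. The estimated background SD was then 1070 and 1770 in the channels of array 2 and 6440 in the red channel of array 4, against 1.17 to 2.51 without marked spots, and the corrected CARTPT intensity of the pregnant gilts there was 1493 and 5040, against 260.8 and 367.7. With pregnant RNA in Cy3 on every array it turned to 0.16, which follows from the turned sign of arrays 2 and 4. There was 1 probe, so no other probe rule could be tried. The mean level ran from 8.06 to 8.59 in pregnant and 9.62 to 10.0 in cyclic gilts with 1 array left out, an alternative added after the levels were seen, and was 8.04 and 9.73 with processed signals.

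At an adjusted p of 0.05 limma called 2 features with an offset of 10, 3 by separate channels and 0 otherwise, also with each array left out. At an unadjusted p under 0.05 the count, 1360, was 617 to 2174 with 1 array left out, 2343 without the filter on dim probes and 2502 by separate channels. With median centring 19.5% of these were higher in pregnant gilts, against 42.1%, and the median of all features was -0.07. CHGA and LHB lost their unadjusted calls without array 1, without array 2 and with a single dye orientation, and LHB also with parameters from all spots, processed signals, the value table and median centring. Of 36 other named genes 21 changed sign with a single dye orientation, 7 with parameters from all spots (PRL, SCG5, CHGB, GNAS, STMN2, POMC and GTF2H2) and 1 (GTF2H2) with median centring. Without array 1 GTF2H2, RPL26L1, CTSB or POMC changed sign, depending on the dye term, without array 3 POMC and without array 4 RPL26L1. The list medians changed sign for 3 of 7 lists with a single orientation (processing -0.10, granins 0.10, cAMP 0.10), 2 with parameters from all spots, 1 (appetite) with an offset of 10, processed signals or the value table, and up to 3 with 1 array left out. The anterior lobe median kept its sign in all of these.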

Other observations

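Several members of the precursor and receptor lists were not well above background in any of the 8 channels: the precursors ADCYAP1, KISS1 and EDN1 and the receptors LEPR, MC4R, NPY2R, HCRTR1 and HCRTR2. This says that these probes gave no usable level here, not that the transcripts were missing.

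Immediate-early genes of the cAMP list moved widely between arrays, and are named after their values were seen. FOS stood at 1.22, -1.11, -1.88 and 0.04 on arrays 1 to 4, NR4A2 at 1.66, -1.23, -0.59 and 1.84, and NR4A3 at 1.26, -0.44, -1.16 and 2.95. All 3 were above 0 on arrays 1 and 4, FOS only slightly on array 4, and below 0 on arrays 2 and 3. Of the 3 other probes of NR4A3, 2 shared the sign of its mean. PCSK2, of the prohormone processing list and also named here after its values were seen, had the same signs at 1.43, -0.55, -0.82 and 1.56. Its ratios above 0 rest on dim cyclic channels, at 6.58 on array 1 and 6.74 on array 4. The 2 arrays on which these genes were lower were those with the lowest CARTPT ratios in the preparation reported. Before loess the lowest CARTPT ratios were instead on arrays 3 and 1 (-2.37 and -2.20), and with 4 arrays no relation was tested.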
